A study of Mus musculus with 3 samples.

Results

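The MS4A genes encode a family of small cell-surface proteins, and 8 of them were measured here in mouse macrophages: Ms4a1, Ms4a4a, Ms4a4b, Ms4a4c, Ms4a6b, Ms4a6c, Ms4a6d and Ms4a7. They were taken by gene symbol, with earlier results of these data known. All 8 were found among the 55536 genes of the deposited gene tables, which hold 19 symbols beginning with Ms4a. The data are 3 ribosomal RNA-depleted total RNA-seq libraries of the cytosolic fraction of bone marrow-derived macrophages, primary cells grown from marrow progenitors, of the C57BL/6J strain. The cells had received Lipid A, the Toll-like receptor 4 ligand of bacterial lipopolysaccharide, at 100 ng/ml for 40 minutes, and no genetic change is named in the labels. Each library began from 1 µg of RNA, and all 3 (replicates 1, 2 and 3) belong to 1 group. Their sample records share 1 donor record and give neither sex nor age, so separate animals are not documented, and p-values cover only how these libraries varied, which may be technical. Neither unstimulated cells nor other fractions were analysed here, and none of the values can be read as an effect of Lipid A or of fractionation.

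MS4A proteins cross the membrane several times, have no known catalytic domain and are thought to act largely by associating with receptors and signalling proteins in the same membrane. The founding members are known from other blood cells: Ms4a1 encodes CD20, the B cell antigen targeted by therapeutic antibodies, Ms4a2 the beta chain of the high-affinity IgE receptor of mast cells and basophils, and Ms4a3 a protein of granulocyte-monocyte progenitors. A further branch, the Ms4a4, Ms4a6 and Ms4a7 genes, is known from macrophages, monocytes and, for some mouse members, T cells, and has expanded by gene duplication.

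Levels are given as TPM, an abundance that the authors scaled to transcript length and to a fixed sum per library. The libraries held 37861150, 37136495 and 58889061 expected counts in genes in replicates 1, 2 and 3, and 3 counts, taken as the limit that a count of 0 allows, came to 0.0792, 0.0808 and 0.0509 CPM. CPM scales counts to a common library total and takes no account of length. Such limits cover counting error only. Nuclear protein-coding genes took 32.8%, 36.2% and 23.5% of TPM in replicates 1, 2 and 3, so a deposited TPM in replicate 3 stands lower for coding genes as a group. A second scale, TPM brought to the same fixed sum over nuclear coding genes alone and called the coding scale, was therefore set beside the deposited one. All 10 macrophage markers examined stood above 1 TPM in the mean, led by Lyz2 and Cd68, and their sum was 10484, 9156 and 6256 TPM in replicates 1, 2 and 3.

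The MS4A genes lie together on chromosome 19. In mm10 coordinates the 19 Ms4a symbols of the annotation spanned chr19:10962293-11640851, a stretch of 679 kb with 6 genes on the plus strand and 13 on the minus strand. The 8 genes described here occupied 355 kb of it, chr19:11249675-11604849. Ms4a1 (chr19:11249675-11266241), Ms4a7 (chr19:11321039-11336146) and Ms4a6d (chr19:11586604-11604849) are on the minus strand. Ms4a4a (chr19:11375523-11392790), Ms4a4c (chr19:11404770-11427246), Ms4a4b (chr19:11443553-11467055), Ms4a6c (chr19:11469366-11482192) and Ms4a6b (chr19:11516512-11531256) follow each other on the plus strand.

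**Figure D1:**
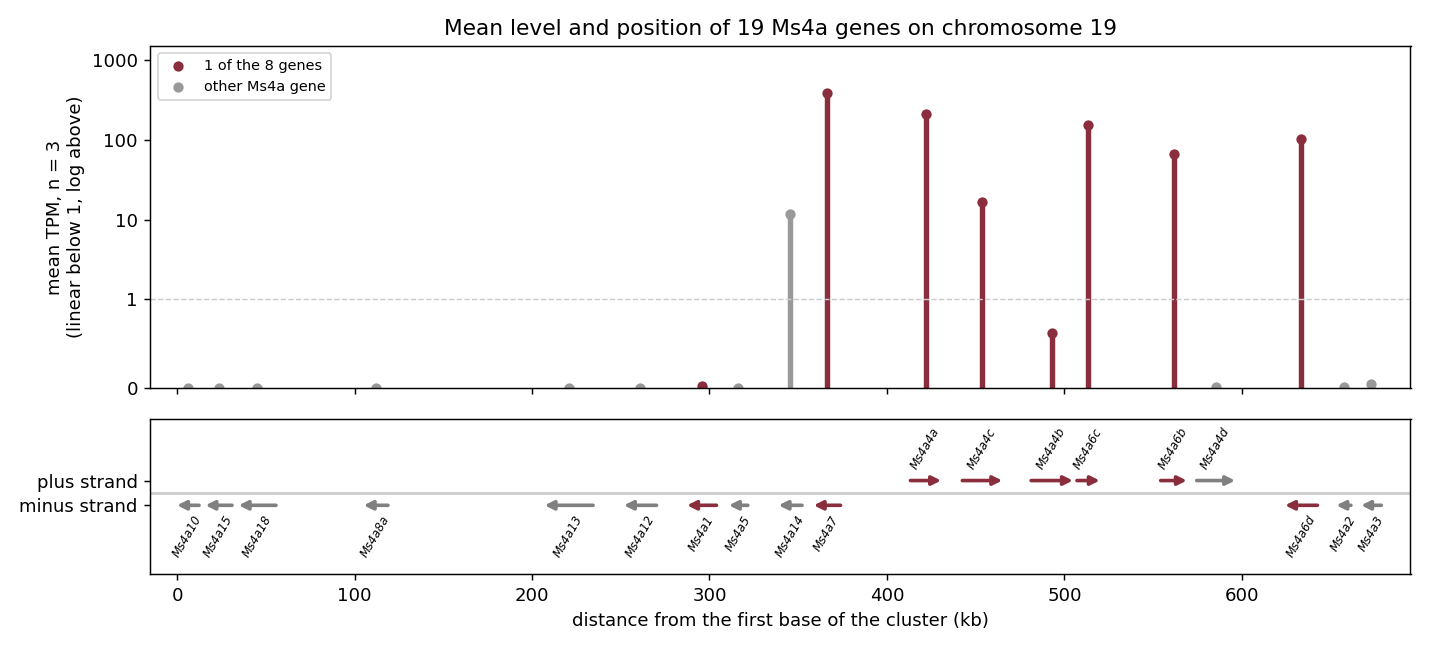
Mean TPM over 3 libraries (upper panel, linear below 1 and logarithmic above, dashed line at 1 TPM) and position and strand (lower panel, arrows in the direction of transcription) of the 19 Ms4a genes, with the x axis in kb from the first base of the cluster. The 8 genes described here are in red. The 6 of them at or above 1 TPM, and Ms4a14, lie in the right part of the cluster, with Ms4a4b, at 0.62 TPM, between Ms4a4c and Ms4a6c.

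Of the 8 genes, 6 reached 1 TPM in the mean over libraries, and 5 belonged to the highest 10% of the 11445 protein-coding genes detected at 0.1 TPM or more, a class that began at 41.7 TPM. The sum over the 8 genes was 1148, 1053 and 616 TPM in replicates 1, 2 and 3. As a share of coding TPM this was 0.350%, 0.291% and 0.262%, and as a share of all expected counts 0.167%, 0.148% and 0.121%. The sum was lowest in replicate 3 on each of these scales.

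Ms4a7, a gene known from macrophages and mature monocytes, had the highest level of the family. Its TPM was 475.62, 434.41 and 257.99 in replicates 1, 2 and 3, a mean of 389 ± 116 (SD, n = 3), from 25469, 22111 and 30075 expected counts. Replicate 3 was the lowest and the other 2 libraries lay close together. On the coding scale its values were 1452, 1201 and 1097, so that the gap between replicates 2 and 3 was narrower on this scale. By mean TPM it was in rank 96 of the nuclear protein-coding genes. The protein-coding genes with the most similar levels over the 3 libraries were Sdc4, a cell-surface proteoglycan, and the ribosomal protein genes Rpl17 and Rps25, at Euclidean distances of 0.15, 0.20 and 0.22 in log2(TPM + 1) over 3 libraries.

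Ms4a4a, whose protein is found on macrophages and associates with the beta-glucan receptor Dectin-1, came second. Its TPM was 278.48, 204.93 and 144.94 in replicates 1, 2 and 3, a mean of 209 ± 66.9 (SD, n = 3), and its counts were 9341, 6382 and 9805. Replicate 1 was the highest. On the coding scale the values were 850, 567 and 616, and here replicate 2, not 3, was the lowest. Ms4a4a has a single annotated transcript of 836 bases, and none of its 31-base words (31-mers) occurs in an annotated transcript of another gene.

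The 3 Ms4a6 genes came next and kept the order Ms4a6c, Ms4a6d, Ms4a6b in all 3 libraries. Ms4a6c, known from monocytes and macrophages, had 183.28, 180.80 and 100.60 TPM in replicates 1, 2 and 3, a mean of 155 ± 47.0 (SD, n = 3), from 12849, 12232 and 14772 counts. Ms4a6d had 116.38, 121.65 and 67.63 TPM, a mean of 102 ± 29.8, from 7594, 7441 and 8919 counts. Ms4a6b, known from T cells as well as myeloid cells, had 74.35, 89.68 and 34.92 TPM, a mean of 66.3 ± 28.3, from 7029, 5937 and 6730 counts. All 3 genes were lowest in replicate 3. Replicate 2 gave Ms4a6b its highest TPM but its lowest count. On the coding scale Ms4a6c had 559, 500 and 428, Ms4a6d 355, 336 and 287, and Ms4a6b 227, 248 and 148 in replicates 1, 2 and 3. Replicate 3 was lowest for each of them on this scale as well.

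The Ms4a6 genes are close paralogs, and a stretch of coding sequence is shown for the closest pair. Over aligned coding bases, Ms4a6c and Ms4a6b were 85.4% identical, Ms4a6d and Ms4a6b 81.2%, and Ms4a6c and Ms4a6d 79.0%. The 120 coding bases shown are bases 348 to 467 of the coding sequence of both Ms4a6c-201 (exonic, chr19:11478176-11478295, plus strand) and Ms4a6b-201 (exonic, chr19:11526708-11526827, plus strand) in mm10. The window was chosen for its likeness and is more alike than the whole. Capitals mark the 5 bases at which they differ.
Ms4a6c coding window: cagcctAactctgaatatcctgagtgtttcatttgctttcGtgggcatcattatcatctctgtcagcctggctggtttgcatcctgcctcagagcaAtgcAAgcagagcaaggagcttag
Ms4a6b coding window: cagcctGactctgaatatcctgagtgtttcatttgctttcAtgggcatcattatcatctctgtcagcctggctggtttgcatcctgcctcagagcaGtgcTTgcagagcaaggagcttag
A read wholly inside a stretch between the capitals could come from either gene. Over all annotated transcripts, 14.2% of the 31-mers of Ms4a6c, 7.71% of those of Ms4a6b and 5.10% of those of Ms4a6d also occurred in another of the 8 genes. For any other annotated gene the shares were 21.9%, 7.84% and 8.11% on the same strand. On the opposite strand they were 51.0%, 3.28% and 1.39%.

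The likeness of Ms4a6c and Ms4a6b extended to the bases before their RefSeq starts, which are those of Ms4a6c-201, to within 2 bases, and Ms4a6b-201. Ms4a6b-205 starts further upstream, at chr19:11516512, so the Ms4a6b window lies inside the annotated gene and is not upstream of that transcript. The 250 bases before each RefSeq start are shown (RefSeq sequences, GRCm38.p6, plus strand, chr19:11469118-11469367 for Ms4a6c and chr19:11518309-11518558 for Ms4a6b), because both genes were abundant. Capitals mark the longest run of letters that they share, 48 bases.
Ms4a6c upstream: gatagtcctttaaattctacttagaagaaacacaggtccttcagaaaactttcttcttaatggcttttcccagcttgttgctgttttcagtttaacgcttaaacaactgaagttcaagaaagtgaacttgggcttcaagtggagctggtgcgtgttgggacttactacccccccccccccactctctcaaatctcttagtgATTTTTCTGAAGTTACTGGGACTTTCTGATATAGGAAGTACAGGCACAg
Ms4a6b upstream: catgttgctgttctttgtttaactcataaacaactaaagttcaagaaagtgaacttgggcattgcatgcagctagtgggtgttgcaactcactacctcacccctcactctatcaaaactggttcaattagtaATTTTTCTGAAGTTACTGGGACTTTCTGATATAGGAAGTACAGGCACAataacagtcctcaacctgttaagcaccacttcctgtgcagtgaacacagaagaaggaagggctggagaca
The shared run lay 49 to 2 bases before the RefSeq start of Ms4a6c and 118 to 71 bases before that of Ms4a6b. The 2 windows were 85.1% identical over the 175 bases that aligned. This is a likeness of letters, and which factors bind there was not measured.

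Ms4a4c and Ms4a4b form the closest pair of the 8 genes but stood far apart in level. Ms4a4c, known as an interferon-induced gene of myeloid cells, had 18.64, 20.74 and 10.03 TPM in replicates 1, 2 and 3, a mean of 16.5 ± 5.68 (SD, n = 3), from 783, 810 and 857 counts. Ms4a4b, known from T cells, where its protein associates with the receptor GITR, had 0.96, 0.62 and 0.28 TPM, a mean of 0.62 ± 0.34, from 44, 30 and 72 counts. The ranges of the 2 genes did not overlap. The mean TPM of Ms4a4c was 26.6 times that of Ms4a4b, and the fold within a library was 19.4, 33.5 and 35.8. The effective length of Ms4a4b was 834, 934 and 2311 bases in replicates 1, 2 and 3. Its TPM was thus lowest in replicate 3, where its count was highest. Without length normalization the 2 genes differed by 3.33, 3.66 and 2.81 in log2 of CPM plus 1, least in replicate 3. With coding transcripts alone their means were 16.5 and 0.0867 TPM. On the coding scale Ms4a4c had 56.9, 57.3 and 42.6 in replicates 1, 2 and 3, and Ms4a4b 2.93, 1.71 and 1.19. Ms4a4b thus passed a minimum of 1 on that scale, which brought the count of genes at or above it to 7 of 8.

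Their coding sequences were 91.7% identical. The 120 bases shown, bases 321 to 440 of both Ms4a4c-201 and Ms4a4b-201, carry no mismatch, and they are given because a read wholly inside them cannot be assigned to either gene by sequence. The window spans 2 exons in each gene, within chr19:11419001-11421259 for Ms4a4c and chr19:11459161-11461258 for Ms4a4b, plus strand, mm10.
Ms4a4c and Ms4a4b coding window: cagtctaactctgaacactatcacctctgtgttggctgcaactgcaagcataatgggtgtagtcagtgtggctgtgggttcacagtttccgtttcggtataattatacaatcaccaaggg
In all, 13.0% of the 31-mers of Ms4a4c occurred in Ms4a4b, and 2.58% of those of Ms4a4b in Ms4a4c. The counts given to Ms4a4b were 5.62%, 3.70% and 8.40% of those given to Ms4a4c in replicates 1, 2 and 3. For both genes the posterior SD of the count that the authors deposited was 0.15, 0 and 0 in replicates 1, 2 and 3. The part that shared reads play in these low Ms4a4b values was not tested.

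**Figure D2:**
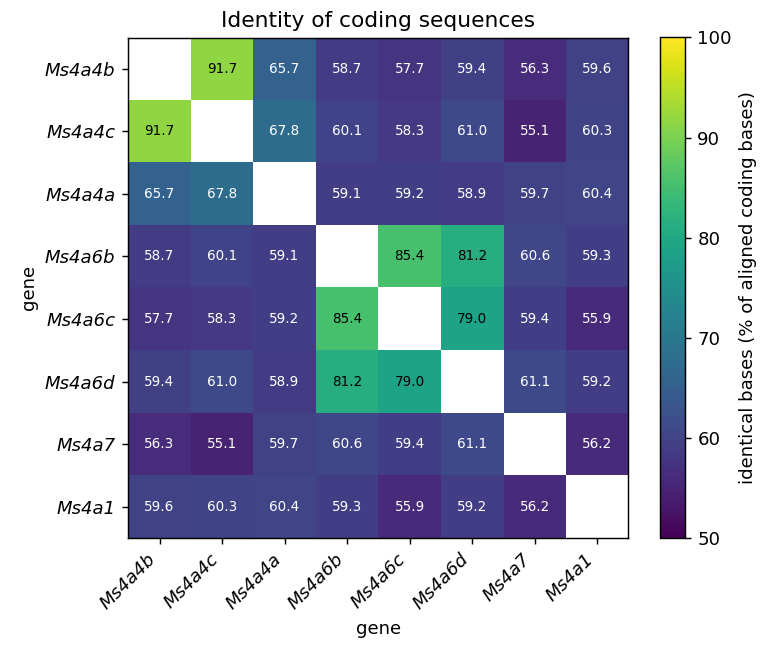
Percent of identical bases over the aligned coding bases of 1 coding transcript of each of the 8 genes, Ms4a7-203 for Ms4a7 and the transcript numbered 201 for the others, as colour and number. Ms4a4b and Ms4a4c (91.7%) and the 3 Ms4a6 genes (79.0% to 85.4%) stand out from the other pairs, the closest of which is Ms4a4a and Ms4a4c at 67.8%.

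The 250 bases before the RefSeq starts of this pair are shown because the 2 genes differed widely in level (RefSeq, GRCm38.p6, plus strand, chr19:11407411-11407660 for Ms4a4c and chr19:11443308-11443557 for Ms4a4b). The RefSeq start of Ms4a4c is that of Ms4a4c-201. Ms4a4c-203 starts further upstream, at chr19:11404770, so this window lies inside the annotated gene and is not upstream of that transcript. The RefSeq start of Ms4a4b is that of Ms4a4b-204. Ms4a4b-203 and Ms4a4b-206 start inside the window, at chr19:11443553, and the coding Ms4a4b-201 soon after it, at chr19:11443573. Ms4a4b-207, the transcript of this gene with the highest mean TPM, starts far downstream, at chr19:11461139, so the window does not adjoin its start. Capitals mark the longest shared run, 20 bases.
Ms4a4c upstream: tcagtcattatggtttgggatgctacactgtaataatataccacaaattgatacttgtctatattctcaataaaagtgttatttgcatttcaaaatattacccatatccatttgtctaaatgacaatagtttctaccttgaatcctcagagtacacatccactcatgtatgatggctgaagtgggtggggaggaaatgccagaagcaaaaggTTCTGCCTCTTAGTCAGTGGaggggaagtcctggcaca
Ms4a4b upstream: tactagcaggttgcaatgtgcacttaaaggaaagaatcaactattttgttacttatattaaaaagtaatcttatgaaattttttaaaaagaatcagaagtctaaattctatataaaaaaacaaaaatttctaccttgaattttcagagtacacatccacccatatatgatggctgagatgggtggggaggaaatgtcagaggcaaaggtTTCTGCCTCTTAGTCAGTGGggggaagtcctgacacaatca
The run lay 38 to 19 bases before the RefSeq start of Ms4a4c and 41 to 22 bases before that of Ms4a4b, and the windows were 77.3% identical over 233 aligned bases. Nothing about binding at these bases was measured.

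Ms4a1, the gene of the B cell antigen CD20, was at the limit of detection. It had 1, 7 and 3 counts in replicates 1, 2 and 3, which is 0.01, 0.05 and 0.01 TPM, against 0.0192, 0.0204 and 0.00949 TPM that a count of 0 would allow. An annotated antisense gene, 4930526L06Rik, had 4, 1 and 9 counts, and its body, introns included, spans the whole of Ms4a1. Of the 31-mers of Ms4a1, 2.23% occurred on the opposite strand of any other gene's annotated transcripts. The posterior SD that the authors deposited for the Ms4a1 count was 0 in each library. The part of antisense reads in these counts was not tested. Cd79a, which encodes a chain of the B cell receptor complex, was as low as Ms4a1, with 0, 3 and 4 counts. Of 8 B cell markers only Cd22, at a mean of 2.79 TPM, reached 1 TPM, and Cd79b, the next, had 0.91 TPM. The list summed to 4.72, 4.14 and 3.41 TPM in replicates 1, 2 and 3. In bulk RNA, few cells of a type and little RNA per cell cannot be told apart.

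**Figure D3:**
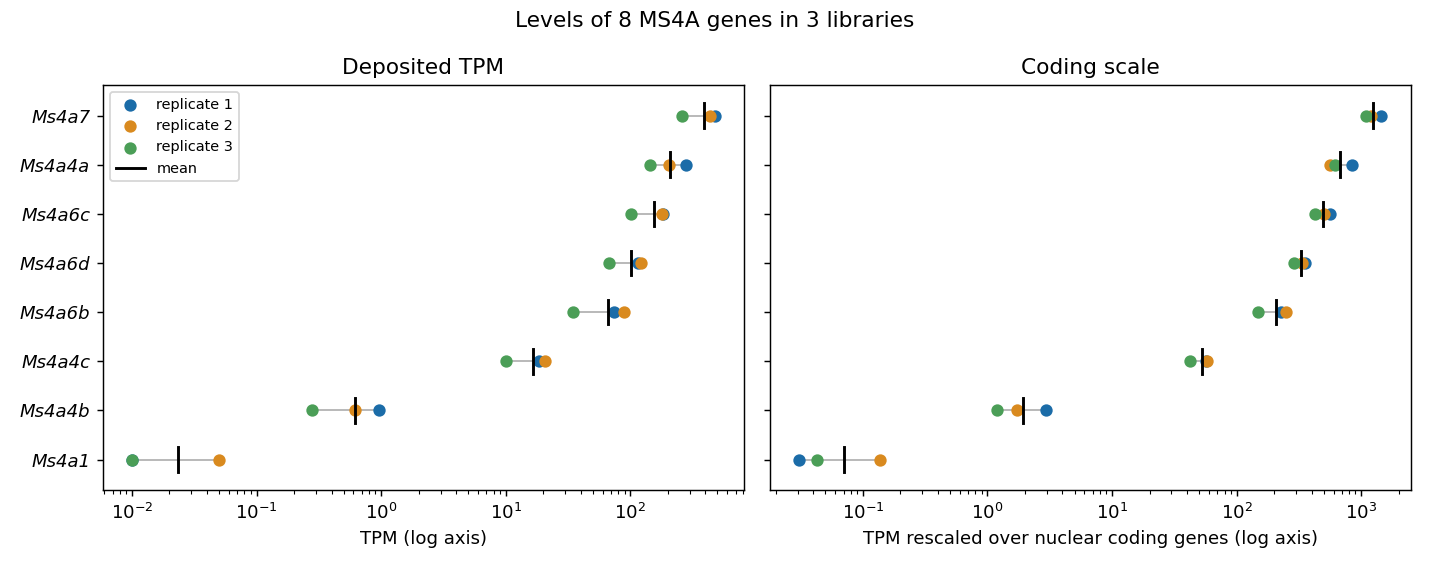
Level of each of the 8 genes in each library, as deposited TPM (left) and on the coding scale (right), both on logarithmic axes, with coloured points for the 3 libraries and a black bar for their mean. From Ms4a7 at 389 to Ms4a1 at 0.0233 mean TPM the genes keep 1 order in every library, and replicate 3 lies lowest in deposited TPM for the upper 7 genes.

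The order of levels was Ms4a7, Ms4a4a, Ms4a6c, Ms4a6d, Ms4a6b, Ms4a4c, Ms4a4b and Ms4a1. Each of the 7 neighbouring pairs had the same order in 3 of 3 libraries, and in each the mean difference within a library exceeded its SD. The closest pair of genes above 1 TPM in the gene table was Ms4a4a over Ms4a6c, with differences of 0.60, 0.18 and 0.52 in log2(TPM + 1) in replicates 1, 2 and 3 and a mean of 0.43 ± 0.22 (SD, n = 3). Which pair was closest changed with the table: in the second transcript table it was Ms4a6d over Ms4a6b, at 0.32, and with coding transcripts only Ms4a6c over Ms4a6d, at 0.17. The widest on this scale was Ms4a4c over Ms4a4b, at 3.39 ± 0.32. The other pairs, from the top of the order down, differed by 0.89 ± 0.16, 0.59 ± 0.05, 0.67 ± 0.25, 1.90 ± 0.18 and, for Ms4a4b over Ms4a1, 0.64 ± 0.31. Differences on this scale understate those of low genes, Ms4a4b over Ms4a1 most of all, and the 1 to 7 counts of Ms4a1 are too few for a fold. An exact two-sided sign-flip permutation test gave p = 0.25 for each of the 7 pairs, before and after Benjamini-Hochberg adjustment, and 0.25 is the smallest p that 3 libraries allow. Without length normalization Ms4a6c had a higher CPM than Ms4a4a, by 0.66 in log2 of CPM plus the pseudocount of 1. Its effective length was 1281, 1306 and 1323 bases in replicates 1, 2 and 3, against 613, 601 and 609 for Ms4a4a.

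Among the other 11 Ms4a genes, Ms4a14 alone reached 1 TPM. It adjoins Ms4a7 on the minus strand (chr19:11301249-11314454) and had 12.20, 13.62 and 9.93 TPM in replicates 1, 2 and 3, a mean of 11.9 ± 1.86 (SD, n = 3), between Ms4a4c and Ms4a4b in the order. Its counts were 2564, 2703 and 4232. Of the remaining genes, 5 had no count in any library in the gene table, where a count of 0 allowed up to 0.110 TPM. None of the others had more than 7 counts in a library, and the highest mean was 0.0433 TPM, of Ms4a3. These are values of the gene table, and the second transcript table gave Ms4a12 13.2, 4.31 and 19.4 counts in replicates 1, 2 and 3. The IgE receptor gene Ms4a2 had 1, 0 and 5 counts. The Ms4a genes at or above 1 TPM were thus Ms4a14 and 6 genes named Ms4a4, Ms4a6 or Ms4a7, and of those so named Ms4a4b and Ms4a4d fell below it. Tmem176b and Tmem176a, genes of a related family on chromosome 6, had means of 15.4 and 6.37 TPM.

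Within the span of the cluster the annotation has 16 genes whose symbol is not Ms4a, and 2 of them reached 1 TPM. RefSeq names a further 2 of the 16, 1700025F22Rik and 1700017D01Rik, Ms4a19 and Ms4a20, and both had 0 counts. AW112010, a long non-coding RNA, had 20.6, 16.27 and 7.0 TPM in replicates 1, 2 and 3. BE692007, a processed transcript on the strand opposite to Ms4a6c, had 6.33, 6.07 and 3.57 TPM. It covers 1088 of the 2050 exonic bases of Ms4a6c (53.1%), between chr19:11480299 and 11482192, and 105 of these bases are coding. The counts of BE692007 were 10.8%, 10.5% and 10.4% of those of Ms4a6c in replicates 1, 2 and 3. Use of strand in the counting is not given in the sources used here, so the division of these reads is uncertain. The posterior SD of the count that the authors deposited was the same for both genes, 17.58, 15.67 and 19.72 counts, and at most 0.15 counts for the other 7 MS4A genes.

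Of 12 documented partners of MS4A proteins, 9 had a mean of at least 1 TPM. The adaptors Tyrobp (DAP12) and Fcer1g (the common Fc receptor gamma chain) were the highest, at means of 980 and 641 TPM. Trem2, a lipid receptor that signals through Tyrobp and whose protein level is linked to MS4A4A, had 382.53, 403.12 and 316.13 TPM in replicates 1, 2 and 3, and Clec7a, the gene of Dectin-1, 185.92, 237.41 and 146.35. Ms4a4a stood above Clec7a in replicate 1 and below it in replicates 2 and 3, so these 2 genes had no fixed order. By contrast Tnfrsf18, the gene of GITR, had 2, 0 and 3 counts, and Fcer1a, the alpha chain of the IgE receptor, none. Levels of RNA say nothing of whether the proteins met.

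Markers of other blood cells in which MS4A genes are known were measured in the same libraries. Of 10 T and NK cell markers only Cd4 reached 1 TPM, with a mean of 23.7 TPM, and Lck was next at 0.04, while Cd3e and Ncr1 had no count, and the list summed to 23.7, 28.8 and 18.8 TPM in replicates 1, 2 and 3. No mast cell and basophil marker of 8 reached 1 TPM, with Kit (0.51 TPM) and Hdc (0.153 TPM) the highest and Fcer1a, Mcpt4 and Tpsb2 at 0. None of 8 granulocyte-monocyte progenitor markers did, with Prtn3 (0.553 TPM) and Sox4 (0.533 TPM) the highest, and none of 6 dendritic cell markers, with Ccr7 (0.75 TPM) and Siglech (0.377 TPM) the highest. Of 8 neutrophil markers 5 did, led by S100a9 and Csf3r, with summed levels of 68.8, 63.9 and 52.7 TPM in replicates 1, 2 and 3 and Ly6g at 0 counts. Of 6 monocyte markers 5 did, led by F13a1 and Plac8, with sums of 42.2, 38.2 and 22.8 TPM. The part of such cells in the MS4A levels was not tested.

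The transcript tables showed which RNAs made up each gene. All 8 genes had the same main transcript, the one with the highest mean TPM, in both deposited transcript tables. For 7 of them it was annotated as protein-coding, and for Ms4a4b it was Ms4a4b-207, a retained-intron transcript of 550 bases. Ms4a4a has a single annotated transcript, so its sameness was fixed in advance, and that of Ms4a1 rests on 1, 7 and 3 counts. In Ms4a6d nearly all RNA was 1 coding transcript, with Ms4a6d-201 at 99.7%, 99.8% and 99.6% of its TPM in replicates 1, 2 and 3.

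Ms4a7 RNA was assigned mainly to 2 coding transcripts. Ms4a7-203 held 69.1%, 72.5% and 74.4% of the TPM of Ms4a7 in replicates 1, 2 and 3, and Ms4a7-202, which starts downstream of it and has 1 exon fewer, 27.6%, 24.9% and 20.4%. Ms4a7-203 was given the larger share in every library. Of its 1304 31-mers, 0 are in no other transcript, against 29 of the 852 of Ms4a7-202. No 31-mer thus marks Ms4a7-203 alone, and the part that shared sequence plays in this split was not tested. In the second table the shares of Ms4a7-203 were 61.0%, 68.1% and 67.8%.

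Ms4a6c and Ms4a4c showed how short transcripts weigh in TPM. Ms4a6c-202, a retained-intron transcript of 639 bases against 1841 for the coding Ms4a6c-201, took 28.0%, 25.0% and 24.3% of the TPM of Ms4a6c in replicates 1, 2 and 3 but 9.10%, 7.73% and 7.57% of its counts. Its intronic part is 209 bases at chr19:11472528-11472736. Ms4a4c-203, a coding transcript of 361 bases, took 53.9%, 52.1% and 53.5% of the TPM of Ms4a4c and 9.97%, 9.07% and 9.68% of its counts. The share by TPM was above the share by counts in each library for both. For comparison, over 5945 protein-coding genes of at least 1 TPM with such a transcript, the median share of TPM in retained-intron transcripts was 1.45% and the upper 10% of genes began at 17.5%. With coding transcripts alone, Ms4a6c exceeded Ms4a6d by 0.17 ± 0.01 in log2(TPM + 1) (SD, n = 3), against 0.59 over all transcripts.

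In Ms4a6b 1 short transcript changed the order of the libraries. Ms4a6b-202, a retained-intron transcript of 429 bases, was given 0.02, 26.22 and 1.75 TPM in replicates 1, 2 and 3, from 0.18, 266 and 39.7 counts. Replicate 2 stood alone, and there the effective length of the gene was 1278 bases, against 1728 and 1736 in replicates 1 and 3. The coding transcripts of Ms4a6b alone had 73.3, 62.8 and 32.5 TPM, so replicate 1 and not replicate 2 was the highest. Of the 399 31-mers of Ms4a6b-202, 35 are in no other transcript. The second table gave it 8.62, 22.2 and 3.51 TPM, again highest in replicate 2.

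Ms4a4b consisted largely of transcripts annotated as retained introns. They made up 90.7%, 85.7% and 70.4% of its TPM in replicates 1, 2 and 3, while the coding Ms4a4b-201 had 0.09, 0.09 and 0.08 TPM. By counts the coding transcript had the larger part in replicates 2 and 3, with 48.6%, 66.6% and 59.1% in replicates 1, 2 and 3. These shares rest on 30 to 72 counts for the whole gene.

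**Figure D4:**
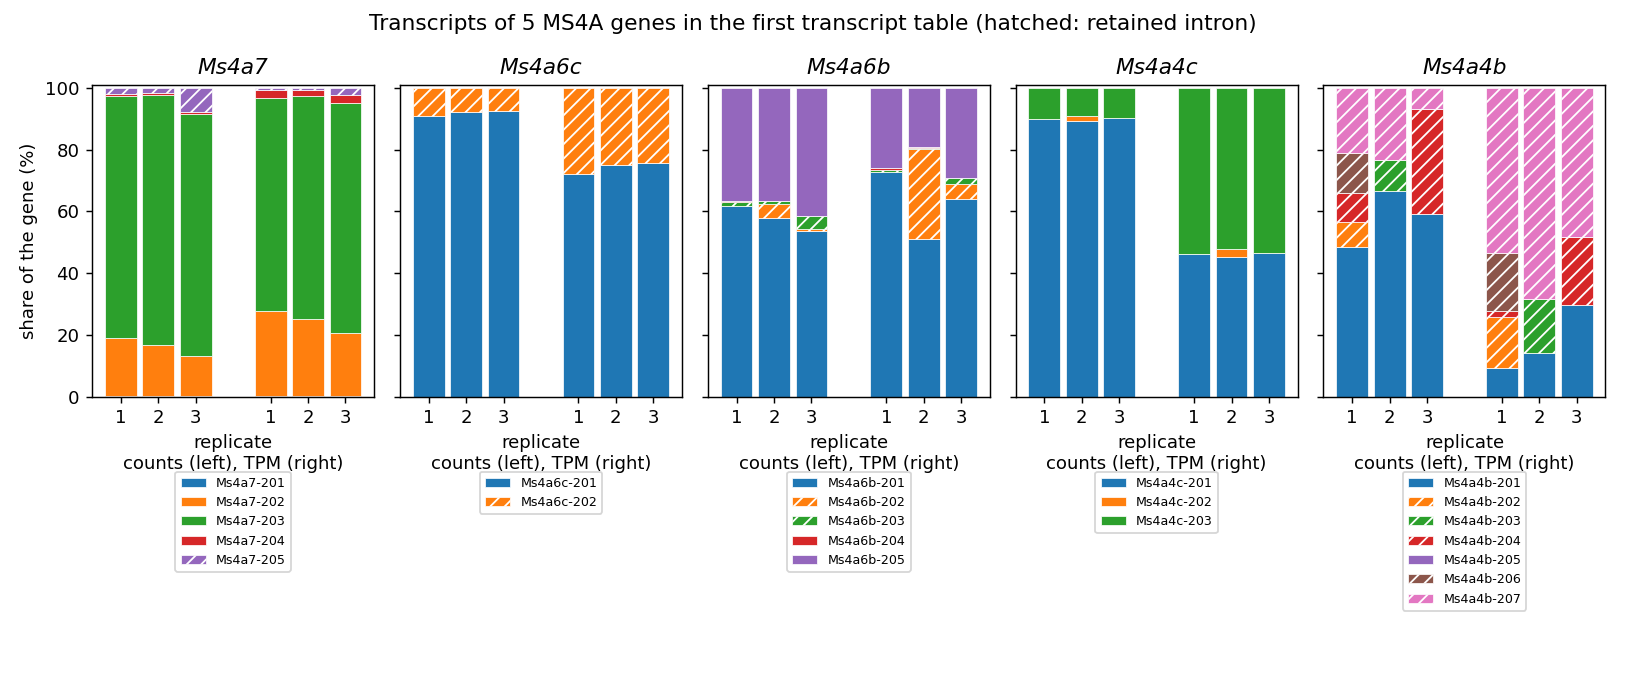
Share of each annotated transcript in the expected counts (left 3 bars of a panel) and the TPM (right 3 bars) of 5 MS4A genes, per library, from the first transcript table, with retained-intron transcripts hatched. Ms4a6c-202 and Ms4a4c-203 take larger shares of TPM than of counts in every library, and Ms4a6b-202 takes 29.2% of the TPM of Ms4a6b in replicate 2 but 0.0269% in replicate 1.

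In the first transcript table the share of counts in retained-intron transcripts, summed per gene, differed between the libraries in no common direction. It was 1.98%, 1.76% and 7.78% for Ms4a7 in replicates 1, 2 and 3 and 0.0523%, 0.0473% and 0.0701% for Ms4a6d, and these 2 genes were highest in replicate 3. For Ms4a6c it was 9.10%, 7.73% and 7.57% and for Ms4a4b 51.4%, 33.4% and 40.9%, highest in replicate 1. For Ms4a6b it was 1.5%, 5.56% and 4.90%, highest in replicate 2. Thus 2 of these 5 genes were highest in replicate 3, and for Ms4a6d this rests on 3.97, 3.52 and 6.25 counts. Over the 5945 coding genes the median of the same share was 0.498%, 0.230% and 0.971% in replicates 1, 2 and 3, and of the 5462 genes with any, 64.3% were highest in replicate 3. Malat1, a nuclear long non-coding RNA, had 291, 264 and 898 TPM, highest there.

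Single long transcripts were a part of these sums, and they are given as values chosen after they were seen. Ms4a7-205, of 3607 bases, is the sole retained-intron transcript of Ms4a7. Ms4a6b-203, of 4286 bases, took 1.49%, 1.08% and 4.31% of the counts of Ms4a6b in replicates 1, 2 and 3, and the short Ms4a6b-202 made up the rest. Ms4a4b-204, of 3789 bases, took 9.47%, 0% and 34.3% of the few counts of Ms4a4b. The part of nuclear RNA in these shares was not tested.

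The spread between libraries was tested with edgeR across all genes, as the departure of a gene's counts from the trend of variation with level. Of 12250 genes tested, 1.56% were called at an adjusted p under 0.05. None of the 7 MS4A genes with enough counts was called by edgeR, and Ms4a1 fell below the filter on low counts. None of the 7 had an unadjusted p under 0.05, against 764 of the 12250 genes, so few would be expected among 7. The smallest p-values were 0.0607 for Ms4a6b (edgeR, Benjamini-Hochberg adjusted p = 0.875) and 0.0761 for Ms4a4a (adjusted p = 0.983). With 3 libraries this does not show that the genes were equal between them.

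On normalized counts, the SD of log2 CPM was 0.17 for Ms4a7, 0.19 for Ms4a6d, 0.20 for Ms4a6c, 0.27 for Ms4a4c, 0.31 for Ms4a4a, 0.32 for Ms4a6b and 0.37 for Ms4a4b. The median over all genes tested was 0.16, and Ms4a14 had 0.07. Ms4a4a, Ms4a6b and Ms4a4b had a larger SD than 80.0%, 81.1% and 85.5% of genes. Among genes within 0.5 log2 CPM of a gene's level, the median SD was 0.128 for Ms4a4a, 0.128 for Ms4a6b and 0.394 for Ms4a4b. It was 0.165 for Ms4a7, 0.126 for Ms4a6d, 0.129 for Ms4a6c and 0.141 for Ms4a4c. Ms4a4b was thus below the median of genes of like level, and the other tested MS4A genes were above theirs. Ms4a4a was at 7.94, 7.38 and 7.44 log2 CPM in replicates 1, 2 and 3, so replicate 1 stood above the other 2. Ms4a6b was at 7.53, 7.27 and 6.89, with replicate 3 the lowest. Of the 7 genes, 5 were lowest in replicate 3, 2 (Ms4a4a and Ms4a4b) in replicate 2 and 0 in replicate 1, against 32.7%, 36.9% and 30.4% of all genes tested.

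**Figure D5:**
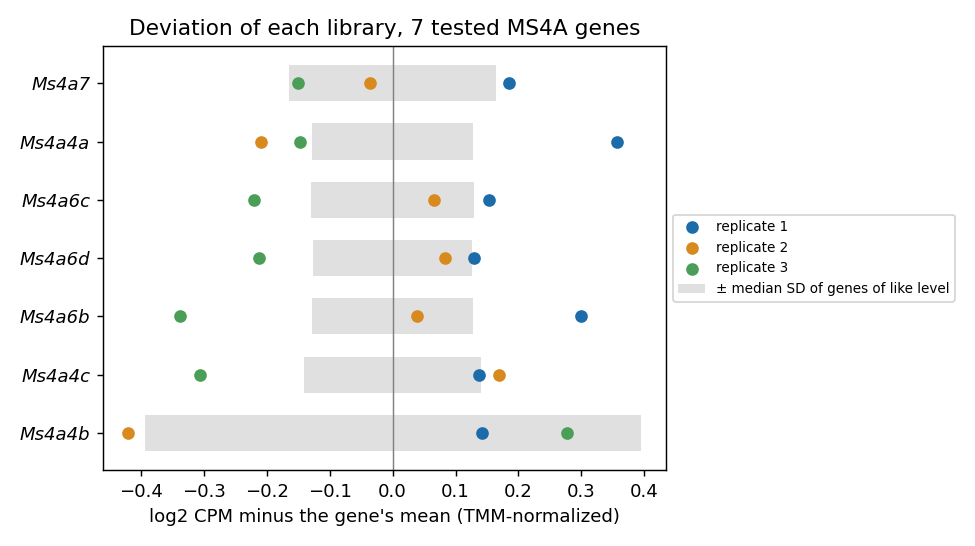
Deviation of each library from the mean of the gene, in log2 CPM after TMM normalization, for the 7 tested MS4A genes, with a grey band of plus and minus the median SD of genes within 0.5 log2 units of like level. Replicate 3 is the lowest point of Ms4a7, Ms4a6c, Ms4a6d, Ms4a6b and Ms4a4c, and replicate 1 is the highest of Ms4a4a.

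The 2 quantifications of the same libraries were compared for each gene. As deposited, the mean TPM of the gene table was 1.44 to 2.39 times that of the second transcript table, and 1 of 8 genes, Ms4a1, was within 1.5-fold. Over 11427 detected coding genes the median ratio was 2.30 and 2.17% were within 1.5-fold, and coding genes held 15.3%, 18.0% and 7.03% of TPM in the second table. After both tables were rescaled to coding TPM, 6 of 8 MS4A genes were within 1.5-fold, against 96.5% of all. Their ratios were 1.00 for Ms4a7 and for Ms4a6c, 1.05 for Ms4a6d, 0.939 for Ms4a4c, 0.873 for Ms4a4a and 0.831 for Ms4a6b. The exceptions were the lowest genes, Ms4a4b at 0.642 and Ms4a1 at 0.474. Ms4a4a had 1.26, 1.45 and 1.24 times as many counts in the second table in replicates 1, 2 and 3, against 1.09, 1.19 and 1.08 times for Ms4a7. The lowest genes differed more in most libraries, with 2.00, 1.97 and 1.63 times for Ms4a4b and 3.02, 1.01 and 7.37 times for Ms4a1. In the second table Ms4a1 had 3.02, 7.06 and 22.1 counts. The order of the 8 genes by mean TPM was the same in both tables.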

How the data were processed

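Values came from 3 deposited tables per library, 1 of genes and 2 of transcripts, made on mm10 with GENCODE M21, per the deposited notes. For genes and in the first transcript table the authors gave expected counts, with TPM beside them, from an alignment to the transcriptome. In the second transcript table the authors gave estimated counts and TPM obtained from the reads without it, per the deposited notes. The gene table also held the authors' posterior SD of counts, whose definition is not given further. Tools and use of strand: not given in the sources used here. All 55536 gene IDs matched GENCODE M21; 97 spike-ins and 26248 numeric IDs were left out of library sizes and tests.

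The 8 genes, the gene lists and the tests were chosen with earlier results of these data known. Named genes were the 8 members, other Ms4a genes at 1 TPM or more, the 2 highest of each list and of the non-Ms4a genes in the cluster, and the 3 coding genes nearest to the highest member; others (Cd79a, partners, Malat1) were chosen after their values were seen, as were the 31-mer counts, the coding and upstream windows, their shared runs and the retained-intron comparison. Proteins of the members were planned and are not used here. The values of 1 B cell marker are not reported here. RefSeq upstream windows matched 6 of 8 members.

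Spread was tested on expected counts rounded to whole numbers in edgeR 4.0.16 (R 4.3.3) after filterByExpr and TMM normalization. An intercept-only model with trended dispersion was fitted, its goodness of fit was tested by chi-square, and p-values were adjusted by Benjamini-Hochberg over all genes. The procedure was tested on simulated data. Levels were handled in Python 3.11.15 with pandas 2.3.3, and sequences aligned with Biopython 1.88. The pseudocount was 1.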

Additional observations from a re-analysis of the deposited data

How the results depend on the processing

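The count of genes at or above 1 TPM was 6, or 7 when TPM was rescaled over coding genes or the minimum set to 0.1 TPM. The order of the 7 pairs kept in every alternative but one: in CPM, with no length normalization, Ms4a4a minus Ms4a6c was -0.66 in log2, and 6 pairs kept their order. An alternative added after seeing the data, coding transcripts only, kept all 7. Genes within 1.5-fold between the quantifications were 1 as deposited, 4 with a 2-fold limit and 6 after rescaling to coding TPM, and 0 to 1 with 1 replicate left out (0 without replicate 3, the cause was not tested). No MS4A gene was called for spread under any of the 7 alternatives, where adjusted p (edgeR) ranged from 0.214 to 1.00 over genes and settings. The main transcripts were the same in both tables for 8 of 8 genes in each alternative. This was fixed in advance for Ms4a4a, and with coding transcripts only also for Ms4a6c, Ms4a4b and Ms4a1, which have a single coding transcript. Over all alternatives for single values, 150 did not leave the spread of the main value or their side of the threshold, 32 moved and 1 reversed. Of those that moved, 17 were differences between neighbouring genes and 15 were mean levels, 8 of these under rescaling and 6 in the second transcript table, where the TPM share of coding RNA differs. No paired analysis was possible because all libraries form 1 group. Depth limits what can be said of Ms4a1 (1 to 7 counts in the gene table) and Ms4a4b (30 to 72 counts there).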
